A study of Mus musculus with 8 samples.

Results

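N2A cells kept in drug-free DMSO gave 4 mRNA libraries, 1 each after 2, 4, 6 and 8 hours (h), and these are described here as a time course. They are 4 of the 8 libraries of a study that compared DMSO with 2 μM HU210, an agonist of the cannabinoid receptor CB1 (Cnr1), at the same hours, and were chosen by their labels. N2A (Neuro2A) is a mouse neuroblastoma cell line. All cells, controls included, had spent 16 h in serum-free MEM with 0.1% bovine serum albumin before drug-free DMSO or HU210 dissolved in DMSO was added. The RNA of each library was pooled from separate experiments, so no hour has a replicate, and no untreated library at 0 h was analysed here. Time in DMSO, time after the change of treatment and time without serum therefore cannot be told apart.

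Cells without serum lose the growth factor signals that drive the cell cycle. Proliferating cells transcribe genes for DNA replication late in G1 and genes for mitosis in G2, and both groups are shut down when cells stop cycling. Cells without lipoproteins make their own sterols by the mevalonate pathway, whose genes are switched on by the transcription factor Srebf2 when membrane cholesterol is low. Neuroblastoma lines can extend neurites in serum-free medium, and their Id proteins, inhibitors of bHLH transcription factors, are commonly low in cells that differentiate.

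Of 16980 gene identifiers in the table, 15888 were listed at all 4 hours, and the 11300 with a mean of at least 1 FPKM (fragments per kilobase of exon, scaled to the size of the library, a level per length) over the DMSO libraries were tested. The slope of each gene is the change of log2(FPKM + 1) per hour in a line fitted to the 4 libraries by limma, and ± gives its standard error. The line leaves 2 residual degrees of freedom, so any departure from a straight line counts as error, and p-values measure only the spread between these 4 libraries. In this fit limma moderates standard errors and p-values with the spread of the other genes, which adds 3.88 degrees of freedom. Median FPKM over the tested genes lay between 12.2 and 12.9, and Pearson's r of log2 values between libraries lay between 0.979 and 0.989 across genes, lowest for 4 h and 6 h. Each library was sequenced on a lane of its own, but the number of reads behind a single FPKM was not analysed here and no counting error can be given. Whether all libraries were scaled in 1 Cuffdiff run is not given in the sources used here. Neuronal markers were expressed: 6 of 6 measured, among them Stmn2, Uchl1 and Gap43, were at 1 FPKM or more at every hour, and their summed level was 676 to 752 FPKM. The sympathetic neuroblastoma markers summed to 136 to 189 FPKM, whereas Dbh, the enzyme that makes noradrenaline, was at 0.928 to 1.3 FPKM. Markers of other cell types were low, with sums of 0.313 to 0.826 FPKM for astrocytes, 0.403 to 0.643 for microglia, 1.52 to 1.79 for endothelium, 2.17 to 2.38 for fibroblasts and 5.59 to 6.68 for oligodendrocytes, the last mostly from Mbp. In bulk RNA, fewer cells of a type and less RNA per cell cannot be told apart.

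No gene passed the trend test at an adjusted p of 0.05 (limma with Benjamini-Hochberg adjustment over 11300 genes, smallest adjusted p = 0.851). At an unadjusted p under 0.05 there were 617 genes, 5.46% of those tested, of which 464 had lower levels later (4.11%) and 153 had higher levels later (1.35%). Fitted slopes were below 0 in 6965 genes (61.6%) and above 0 in 4335 (38.4%), with a median of -0.011 log2 units per hour. This split depended on the scaling between libraries: with each library centred on its median, 49.4% of slopes were below 0 and the unadjusted calls were 296 lower and 263 higher, and with quantile normalization 48.1% were below 0. The split of the unadjusted calls also rested on the last library. Without 8 h there were 102 lower and 131 higher. The counts were 431 and 127 without 2 h, 679 and 245 without 4 h, and 358 and 131 without 6 h. The share of slopes below 0 did not rest on it, at 63.1% without 8 h. Without the 8 h library, 24 genes passed at the same adjusted p, 16 higher and 8 lower, in a fit to 3 points. The values that follow are therefore descriptions of 4 libraries, and no gene named here passed the adjusted test over all of them.

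Genes whose level moved the same way at all 3 steps and by 1.5-fold or more between 2 h and 8 h numbered 38 with higher levels later (0.336%) and 99 with lower levels later (0.876%). The ratio depended on the scaling, with 50 higher and 74 lower after centring and 49 and 66 after quantile normalization. The steps between libraries varied with the GC content and length of transcripts, and after removal of that trend there were 27 and 70, of which 22 and 51 were among the 38 and 99. Of the 99, 5 have fewer than 300 exon bases, the one with the steepest negative slope (-0.462) among them, and these are not described or drawn. Fewer steps are asked for when a library is left out, and counts were then 95 higher and 320 lower without 2 h, 96 and 251 without 4 h, 98 and 213 without 6 h, and 86 and 79 without 8 h. Of the 99 lower genes, 18 belonged to one of the 31 lists of pathway genes used here, and of the 38 higher genes 3 did. The share of all tested genes in these lists was not counted, so neither count is a result about the genes. Transcripts of the higher genes were long, with a median of 5092 bases against 2040 for the lower genes and 2987 for all tested genes, and their median GC contents were 48.8%, 44.4% and 50.5%. Exons of 9 of the 38 and 32 of the 99 overlap exons of another annotated gene, on either strand, and their reads could be shared. The share of all tested genes with such an overlap was not counted. Of the genes described below, Rps25 (29.1% of its exon bases), Fdft1 (26.9%) and Phox2a (26.1%) have the largest overlaps with a gene on the opposite strand. Others have smaller ones, among them Ccna2 (14.6%) and Rfc4 (12.6%). The study's materials name a stranded mRNA kit for library preparation, but whether counting used strand is not given in the sources used here.

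**Figure D1:**
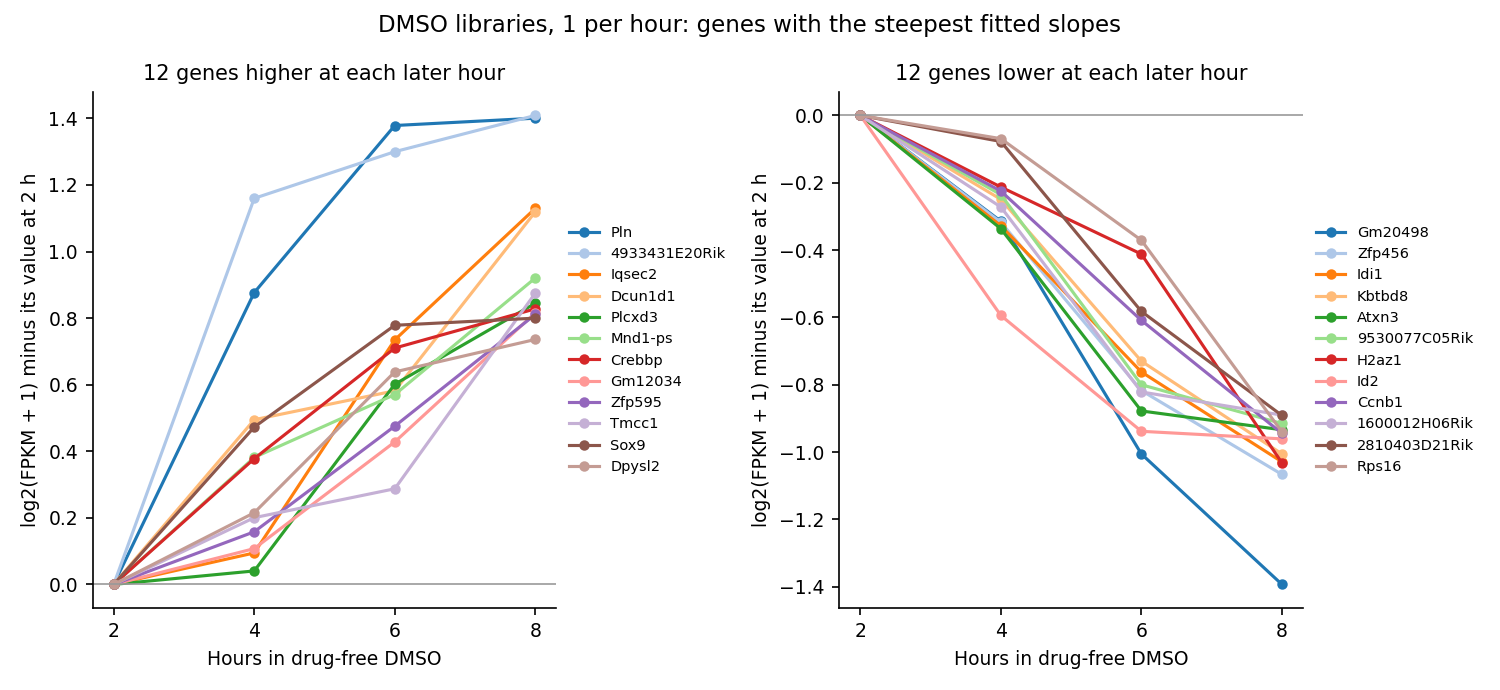
log2(FPKM + 1) minus its value at 2 h (vertical axis) by hours in DMSO (horizontal axis) for the 12 genes with the steepest positive and the 12 with the steepest negative slopes among those that moved the same way at every step, by 1.5-fold or more and with at least 300 exon bases, 1 library a point. At 8 h the values lie between 0.74 and 1.41 in the left panel and between -1.39 and -0.89 in the right panel.

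Genes of the cell cycle had slopes below 0 in nearly every member. Of 44 tested genes for mitosis, 42 had slopes below 0 (95.5%, beside 61.6% of all genes), with a median of -0.053 log2 units per hour against -0.011, and 6 had an unadjusted p under 0.05. Of 45 for DNA replication, 42 were below 0 (93.3%) with a median of -0.046, and 9 had an unadjusted p under 0.05. Such a p with a slope below 0 was found in 4.11% of all genes. Most of the difference lay between 4 h and 6 h, where the median steps were -0.31 for mitosis and -0.23 for replication, beside -0.073 for all genes. That step varied with GC content, and the lists had median GC contents of 47% and 48.7%. Its median was -0.195 over all tested genes with 44.6% to 48.6% GC and -0.098 over those with 48.6% to 52.5%. From 6 h to 8 h the median steps were 0.054 for mitosis and 0.072 for replication. After removal of the trend on GC content and length the shares below 0 were again 95.5% and 93.3%, and after centring they were 93.2% and 77.8% beside 49.4% of all genes. With quantile normalization they were 90.9% and 75.6% beside 48.1%, with medians of -0.037 and -0.024. Without the 8 h library the medians were -0.08 and -0.074, beside -0.017 for all genes, and without the 2 h library -0.06 and -0.041, beside -0.014.

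Ccnb1, the cyclin that drives entry into mitosis (mm9 chr13:101548605-101556525), was at 60, 51.2, 39 and 30.7 FPKM. It was lower at each later hour, 0.519 times its 2 h value at 8 h on the FPKM + 1 scale, with a slope of -0.16 ± 0.029 (limma, unadjusted p = 0.0015, adjusted p = 0.85). Spc25, a subunit of the Ndc80 complex that ties kinetochores to microtubules, was at 26.1, 23.2, 19.5 and 16.2 FPKM. Incenp, the scaffold of the chromosomal passenger complex, was at 21.5, 20.6, 15.6 and 15.2 FPKM, and Prc1, which bundles microtubules of the central spindle, at 34, 29.9, 25.3 and 24.7. All 4 genes had the same order of hours. The abundant kinase gene Cdk1, at 375, 234, 320 and 248 FPKM, and the cyclin gene Ccna2, at 59, 81.8, 34.5 and 51.9, did not. Kif18a, a kinesin of chromosome alignment, was at 8.35, 5.06, 3.67 and 3.98 FPKM, high only at 2 h.

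Replication genes with a steady order included Gins1 of the replicative helicase, at 27.3, 23.6, 17.9 and 15.8 FPKM, and Rfc4 of the clamp loader, at 20.4, 16.9, 15.2 and 10.9. Slbp, which binds the stem loop of histone mRNA, was at 35.1, 33.9, 30 and 22.2 FPKM. The licensing factor gene Cdc6 (16.7, 12.5, 10.2 and 10.7 FPKM) was lower at 6 h and 8 h than at 2 h, and the sliding clamp gene Pcna differed little (161, 153, 136 and 142 FPKM). H2az1, the replication-independent histone variant H2A.Z, was at 76.3, 65.7, 57.1 and 36.8 FPKM, with its largest step from 6 h to 8 h. G1 cyclins and CDK inhibitors showed no such lean, with 4 of 7 tested slopes below 0, and Myc, the growth-associated transcription factor, stayed between 67.9 and 73.6 FPKM.

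Promoters of mitotic genes often hold CCAAT boxes, bound by NF-Y, and the CHR element TTTGAA, bound by the DREAM and MuvB complexes. In windows from 250 bases before to 50 after the RefSeq start (assembly GRCm38.p6), searched on both strands, CCAAT was found in 28 of the 36 mitosis genes that have a window (77.8%) and in 24 of 37 replication genes (64.9%), beside 44.2% of the 8609 tested genes that have one and 41.1% of all 27025. TTTGAA was found in 26 of 36 mitosis genes (72.2%) and 5 of 37 replication genes (13.5%), beside 14% and 20.2%. In the 76 same-way lower genes with a window, the shares were 50% for CCAAT and 13.2% for TTTGAA. In the 26 same-way higher genes with one they were 42.3% and 19.2%. The motif shares of a list of pathway genes do not depend on these libraries. The windows of Ccnb1 (chr13:100786437-100786736, minus strand) and Spc25 (chr2:69206164-69206463, minus strand) are shown because both genes were lower at every later hour and carry 2 CCAAT boxes each. Capitals mark CCAAT and TTTGAA on either strand, and a match is a description of the letters only.
Ccnb1: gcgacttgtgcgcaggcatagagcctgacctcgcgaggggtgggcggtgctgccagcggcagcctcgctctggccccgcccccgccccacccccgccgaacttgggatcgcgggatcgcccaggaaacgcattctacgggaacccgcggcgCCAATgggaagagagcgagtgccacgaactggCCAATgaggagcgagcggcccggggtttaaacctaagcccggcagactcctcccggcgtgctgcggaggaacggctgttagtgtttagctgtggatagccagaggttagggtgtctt
Spc25: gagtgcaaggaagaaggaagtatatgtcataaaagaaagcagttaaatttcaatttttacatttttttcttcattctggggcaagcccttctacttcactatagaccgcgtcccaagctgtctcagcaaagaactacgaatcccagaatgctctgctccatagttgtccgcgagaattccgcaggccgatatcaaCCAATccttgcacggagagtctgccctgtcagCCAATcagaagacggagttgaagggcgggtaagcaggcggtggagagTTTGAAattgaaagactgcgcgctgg

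H1 and replication-dependent histone genes were measured in 50 genes, all 50 with slopes below 0 (100%) and a median of -0.056. Their summed level was 638, 598, 530 and 497 FPKM at 2, 4, 6 and 8 h, lower at each later hour. H4c8 was at 10.3, 9.36, 8.62 and 6.19 FPKM and the linker histone gene H1f2 at 8.59, 6.92, 6.58 and 5.55, both in steady order, whereas H4c18 was at 13.1, 20.2, 13 and 9.84. The median step was 0.13 from 2 h to 4 h, then -0.27, then -0.17. Without the 2 h library 40 of the 50 slopes were below 0 (80%) with a median of -0.088, and without the 8 h library likewise 40 (80%), with a median of -0.043. These genes are near-identical copies within families whose reads the mapping could share, and most of their mRNA ends in a stem loop without a poly(A) tail, while the libraries were made from mRNA purified with oligo(dT) beads. The 50 values are thus few independent measurements, and the part of poly(A) selection in them was not tested.

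Levels of the mevalonate pathway were lower later in most members. Of 22 tested genes for sterol synthesis and uptake, 19 had slopes below 0 (86.4%, beside 61.6%), with a median of -0.052, and 3 had an unadjusted p under 0.05. The median steps were -0.13 from 2 h to 4 h, -0.13 from 4 h to 6 h and -0.12 from 6 h to 8 h. For all genes they were 0.016, -0.073 and 0.005. The median change from 2 h was -0.13 at 4 h, -0.17 at 6 h and -0.29 at 8 h. Summed levels were 1593, 1429, 1391 and 1317 FPKM. By these last measures the fall was smallest from 4 h to 6 h, so whether the steps were alike depended on the measure. After centring, 77.3% of slopes were below 0, and after removal of the trend on GC content and length 81.8%, with a median of -0.058. Idi1, the isopentenyl diphosphate isomerase (mm9 chr13:8884852-8891641), was at 49.2, 39, 28.6 and 23.6 FPKM. It was lower at each later hour, 0.49 times its 2 h value at 8 h, with a slope of -0.18 ± 0.028 (limma, unadjusted p = 0.00085, adjusted p = 0.85). Msmo1, the sterol C4-methyl oxidase, was at 128, 105, 95.5 and 74 FPKM, and Hsd17b7, a ketosteroid reductase that acts after it, at 21.8, 20.5, 15.8 and 13.4. Fdft1, squalene synthase, was at 45.6, 42.1, 40.5 and 33.6 FPKM, and all 4 genes had the same order of hours. Sqle, squalene epoxidase, was at 112 and 111 FPKM at 2 h and 4 h and 82.4 and 87.1 at 6 h and 8 h. Of 14 genes for fatty acid synthesis, 9 had slopes below 0 (64.3%, beside 61.6% of all genes), and 42.9% after centring, beside 49.4%.

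CCAAT was found in 14 of the 15 sterol genes with a promoter window (93.3%) and TTTGAA in 1 (6.67%), beside the 44.2% and 14% of tested genes given above. The windows of Idi1 (chr13:8885356-8885655, plus strand) and Msmo1 (chr8:64733529-64733828, minus strand), the sterol genes with the steepest slopes, are shown with CCAAT on either strand in capitals, ATTGG being its reverse complement.
Idi1: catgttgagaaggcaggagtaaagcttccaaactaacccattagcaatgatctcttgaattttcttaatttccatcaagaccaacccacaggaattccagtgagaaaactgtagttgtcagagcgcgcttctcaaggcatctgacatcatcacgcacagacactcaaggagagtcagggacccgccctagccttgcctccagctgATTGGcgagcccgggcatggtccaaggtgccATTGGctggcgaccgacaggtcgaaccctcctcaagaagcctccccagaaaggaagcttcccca
Msmo1: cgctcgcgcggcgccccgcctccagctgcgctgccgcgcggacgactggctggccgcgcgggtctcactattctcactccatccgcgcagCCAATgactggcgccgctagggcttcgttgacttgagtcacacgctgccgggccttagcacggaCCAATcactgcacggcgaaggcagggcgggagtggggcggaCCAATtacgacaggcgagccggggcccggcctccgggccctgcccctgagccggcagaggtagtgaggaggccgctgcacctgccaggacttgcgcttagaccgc

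Of the Id genes, Id2, Id3 and Id4 were lowest at 8 h, Id4 by little. Id2 was at 5.19, 3.1, 2.23 and 2.18 FPKM (slope -0.16 ± 0.037), with its largest step from 2 h to 4 h, and Id3 at 16.3, 8.55, 9.38 and 5.79 FPKM (slope -0.20 ± 0.045). Id1 was at 21.2, 12.5, 17.6 and 13.5 FPKM, highest at 2 h without an order after it, and Id4 at 4.1, 4.38, 2.55 and 2.54. In the list of Id, Hes and Notch genes, 9 of 11 tested slopes were below 0 (81.8%), with a median of -0.032.

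**Figure D2:**
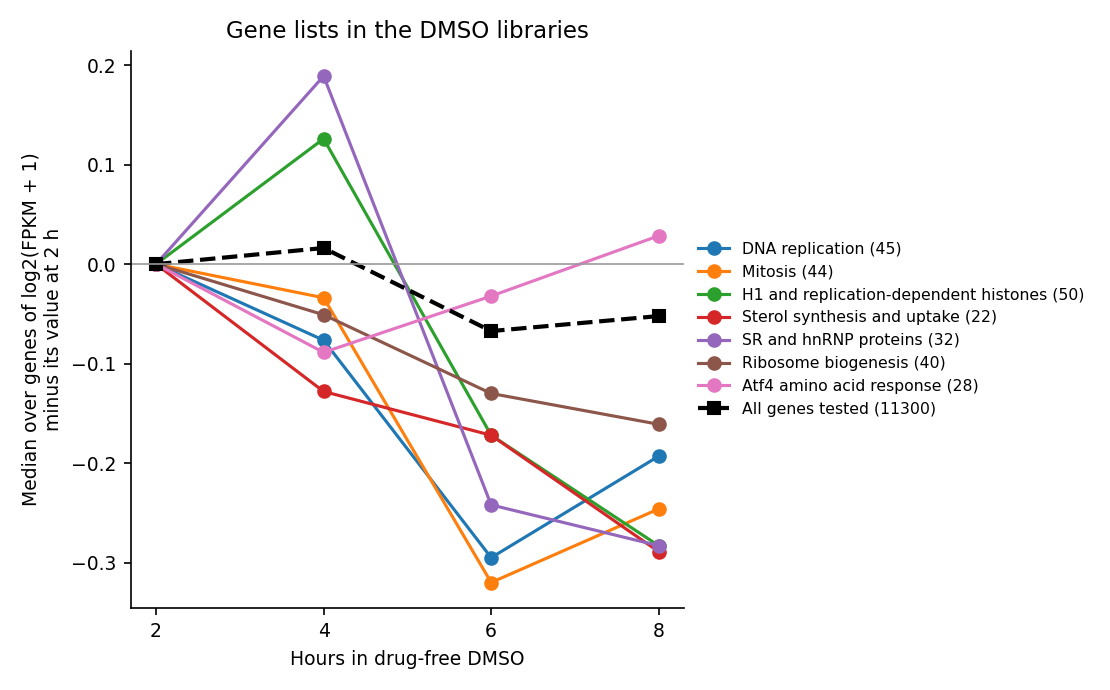
Median over the genes of a list of log2(FPKM + 1) minus its value at 2 h (vertical axis) by hours in DMSO (horizontal axis), with the number of tested genes in brackets and all 11300 tested genes as the dashed line. At 8 h the lines of sterol synthesis, SR and hnRNP proteins, histones, mitosis and DNA replication end between -0.29 and -0.19, below the -0.052 of all genes.

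The 12 same-way genes with the steepest positive slopes were mostly of low level. Iqsec2, an exchange factor for Arf6 at synapses (mm9 chrX:148578811-148659779), was at 3.58, 3.89, 6.62 and 9.02 FPKM at 2, 4, 6 and 8 h. Its slope was 0.20 ± 0.034 log2 units per hour, and the larger steps were the later ones. Dpysl2, which encodes the tubulin-binding protein CRMP2 of growing axons, was at 22, 25.7, 34.8 and 37.3 FPKM, a slope of 0.13 ± 0.03. The levels at 6 h and 8 h lay apart from the lower levels at 2 h and 4 h. Crebbp, a histone acetyltransferase and transcriptional coactivator, was at 7.62, 10.2, 13.1 and 14.3 FPKM (slope 0.14 ± 0.029). Sox9, a transcription factor of neural crest and glial progenitors, was at 3.67, 5.48, 7.01 and 7.13 FPKM (slope 0.14 ± 0.033), with little between the last pair of hours. Dcun1d1, which promotes the neddylation of cullins, was at 6.09, 8.99, 9.61 and 14.4 FPKM, 2.17-fold higher at 8 h than at 2 h on the FPKM + 1 scale. Plcxd3 (16.6 to 30.6 FPKM), Tmcc1 (3.63 to 7.49) and Zfp595 (0.676 to 1.94) had the same order of hours. Pln, the phospholamban gene of the calcium pump, had the steepest slope of the 12, but it was listed at 0 at 2 h and reached only 1.64 FPKM. The other 3 of the 12 were the noncoding 4933431E20Rik and the pseudogenes Mnd1-ps and Gm12034, whose reads can come from related copies.

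Hspa8, the constitutive Hsp70 chaperone, was at 746, 939, 1031 and 1211 FPKM, 1.62-fold higher at 8 h than at 2 h on the FPKM + 1 scale, and its order was the same at every step. In the list of heat shock and cold-inducible genes, however, 13 of 21 tested slopes were below 0 (61.9%, beside 61.6% of all genes). The cold-inducible RNA-binding proteins were on the lower side: Rbm3 was at 65.7, 57.6, 55.3 and 34.1 FPKM, and Cirbp at 43.5, 30.2, 31.6 and 27.5. Hspe1, the mitochondrial chaperonin subunit, was at 158 FPKM at 4 h and 47.3 at 8 h, so that its slope of -0.20 ± 0.089 was poorly determined. Hsp90ab1, the most abundant member by mean level, varied only between 1799 and 2049 FPKM.

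Neurite genes split. Of 29 tested genes for neurites and the neuronal cytoskeleton, 14 slopes were above 0 and 15 below (51.7% below, beside 61.6% of all genes). Map1b, a microtubule-associated protein of growing axons, was at 104, 125, 143 and 154 FPKM, and Mapt, the tau gene, at 32.7, 41.3, 41.4 and 43.6, both higher at each later hour. Elavl4, a neuronal RNA-binding protein, was at 36.7, 56.4, 44.2 and 61.1 FPKM without a steady order. Growth cone membrane proteins lay on the lower side at 8 h, with Basp1 at 49, 54.8, 40.4 and 33.5 FPKM and Marcksl1 at 117, 106, 103 and 79.3. In the list of sympathetic neuroblastoma identity, 12 of 23 slopes were below 0 (52.2%). Phox2a, a homeodomain factor of noradrenergic neurons, was at 48.2, 48.1, 38.2 and 33.4 FPKM, and Chrna3, a subunit of the ganglionic nicotinic receptor, at 49.1, 46.1, 37.4 and 35.2, lower at each later hour in both.

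Steps between neighbouring hours went back and forth more often than they continued, and 52.8% of genes were higher at 4 h than at 2 h, 40.7% higher at 6 h than at 4 h and 51.2% higher at 8 h than at 6 h. Of the 11300 genes, 3361 were higher at 4 h, lower at 6 h and higher at 8 h than in the library before, and 2576 had the opposite zigzag, together 5937 genes (52.5%). Levels were lower at each of the 3 steps in 649 genes (5.74%) and higher at each in 316 (2.8%). Neighbouring steps share a library, so libraries in no order of time would also give more zigzags than steady orders. These shares alone therefore say nothing about change over time. By step, 1.5-fold or more separated 244 genes higher (2.16%) and 225 lower (1.99%) from 2 h to 4 h, 279 higher (2.47%) and 688 lower (6.09%) from 4 h to 6 h, and 151 higher (1.34%) and 185 lower (1.64%) from 6 h to 8 h. The excess of lower genes at the middle step was smaller after centring, with 517 lower and 390 higher, and after quantile normalization, with 511 lower and 394 higher.

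**Figure D3:**
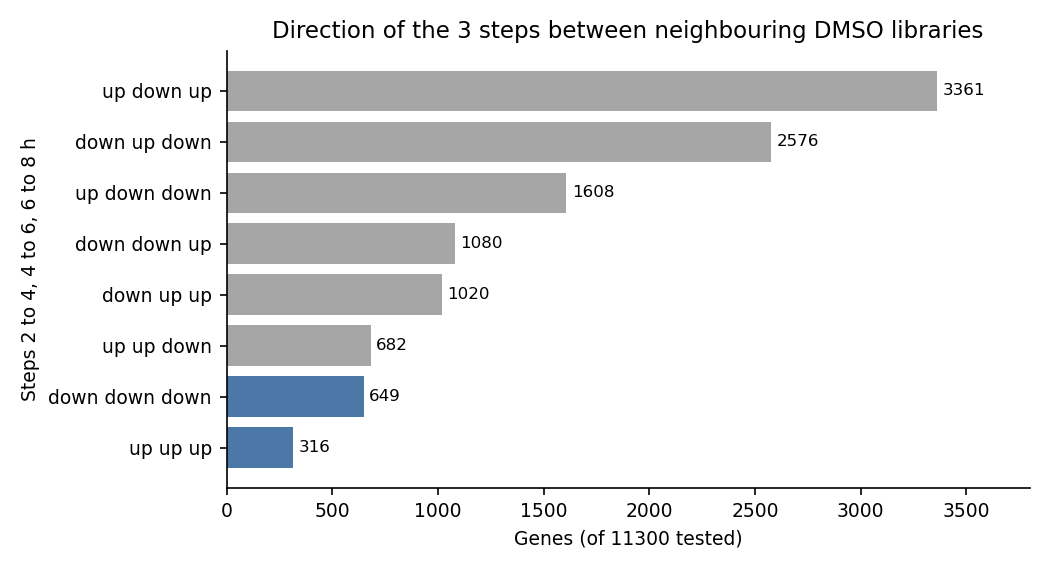
Number of tested genes with each order of higher (up) and lower (down) steps between neighbouring DMSO libraries, counted without a size cutoff. The zigzag orders are the longest bars, 3361 and 2576 genes, and the orders that keep 1 direction, in blue, are the shortest, 649 and 316. Neighbouring steps share a library, which by itself makes zigzags more frequent than steady orders.

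The direction of each step varied with the GC content of the transcripts. Among 10578 genes with a coding transcript, Spearman's rho across genes between GC content and the log2 step was -0.373 from 2 h to 4 h, 0.452 from 4 h to 6 h and -0.172 from 6 h to 8 h. In the fifth of genes with the lowest GC content the median step was 0.11, then -0.24, then 0.016 on the log2 scale. In the fifth with the highest GC content it was -0.13, then 0.14, then -0.07. The sign thus alternated in opposite ways in AT-rich and GC-rich genes, and the points share the same 4 libraries. Slopes over all 4 hours also had a rho of 0.199 with GC content and 0.223 with transcript length. The authors' values already include a correction for fragment bias, and the part of library composition in the time courses was not tested further than by removing the trend on GC content and length. After that removal 64% of all slopes were below 0. The list shares that moved most were those of the proteasome, from 80.6% to 61.1%, of cytosolic ribosomal proteins, from 62.2% to 50%, of glycolysis, from 41.2% to 58.8%, of ERK feedback, from 41.7% to 58.3%, and of the spliceosome core, from 81.2% to 93.8%.

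**Figure D4:**
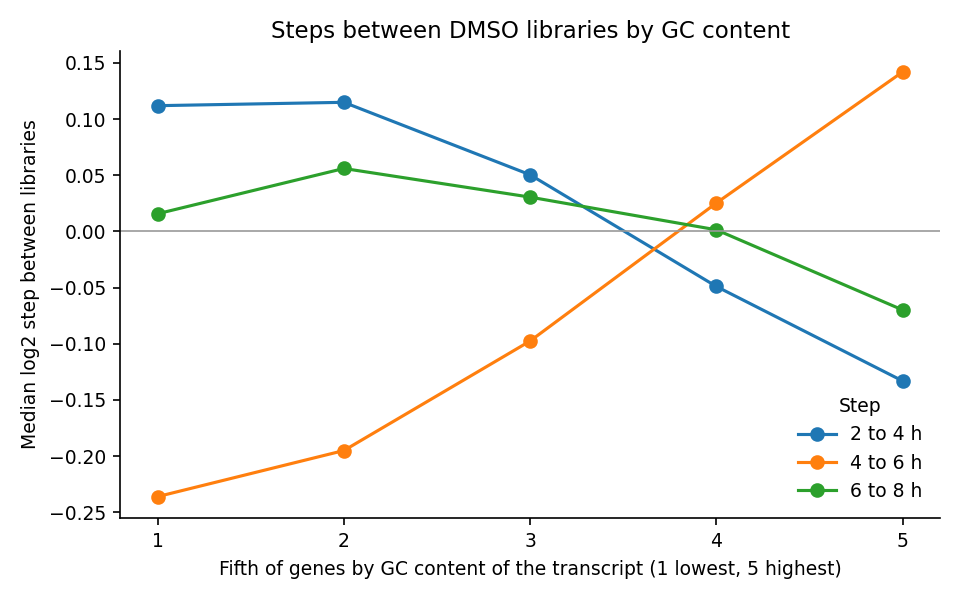
Median log2 step between neighbouring DMSO libraries (vertical axis) for genes in 5 equal groups by the GC content of their longest coding transcript (horizontal axis), 1 line per step. The line from 4 h to 6 h runs from -0.24 to 0.14 while the line from 2 h to 4 h runs the other way, from 0.11 to -0.13.

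Genes for RNA processing and for ribosomes had lower slopes in most members, with less order. SR and hnRNP splicing proteins had 26 of 32 slopes below 0 (81.2%) and a median of -0.053, but their median steps went back and forth, at 0.19, -0.47 and 0.092. Their median GC content was 45.1%, and after removal of the trend on GC content and length 75% of slopes were below 0 with a median of -0.05. Without the 2 h library the median slope was -0.089. Hnrnpdl was at 127, 122, 62.4 and 73 FPKM, Srsf5 at 113, 93.2, 60.1 and 65.4, and Hnrnpd at 99.9, 179, 65.9 and 74.4, so that 6 h and 8 h lay below 2 h in all 3 genes. Spliceosome core genes had 26 of 32 slopes below 0 (81.2%), led by Snrpb2 of the U2 particle at 30.2, 26.7, 23.4 and 16.7 FPKM. For ribosome biogenesis 38 of 40 were below 0 (95%), though 72.5% after centring, 62.5% after quantile normalization and 85% after removal of the trend on GC content and length, with a median of only -0.024. Among its members the nucleolar GTPase gene Gnl3 was at 67.9, 63.6, 44.5 and 49.2 FPKM, Nop58 of box C/D particles at 74.7, 72.9, 57.6 and 54.4, and the abundant Npm1 at 471, 410, 459 and 303. Mitochondrial ribosomal proteins were below 0 in 62 of 75 genes (82.7%). With quantile normalization the share below 0 was 62.5% for SR and hnRNP proteins and 66.7% for mitochondrial ribosomal proteins. It was 71.9% for the spliceosome core and 48.1% for all genes.

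Cytosolic ribosomal proteins leaned no more than all genes, with 46 of 74 slopes below 0 (62.2%, beside 61.6%). Single members lay far apart: Rps16 was at 149, 142, 115 and 77.2 FPKM and Rps25 at 342, 298, 267 and 195, while Rps15a was at 453, 609, 625 and 708. Rps24 was at 490, 464, 393 and 303 FPKM, and the most abundant member, Rplp0, at 2645, 1883, 2172 and 2268. Processed pseudogenes of these genes can share their reads, so single members are uncertain.

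Stress and nutrient programs showed little order over the hours. Immediate-early genes had 12 of 26 slopes below 0 (46.2%) and 0 with an unadjusted p under 0.05 in either direction; Ier5 (5.05 to 3.55 FPKM) and Maff (8.93 to 6.82) were lower at each later hour. Atf4 targets of the amino acid response had 9 of 28 below 0 (32.1%) and a median of 0.017, the highest of the 31 lists, although it was 0.046 without the 2 h library and -0.008 without the 8 h library. Unfolded protein response genes had 18 of 23 below 0 (78.3%), but 56.5% after centring. For p53 targets 8 of 16 were below 0 (50%), for hypoxia-inducible genes 12 of 18 (66.7%), for glycolysis 7 of 17 (41.2%), for the proteasome 29 of 36 (80.6%, but 61.1% after quantile normalization and 61.1% after removal of the trend on GC content and length) and for nuclear genes of oxidative phosphorylation 50 of 73 (68.5%). In the list of FoxO, insulin and starvation genes 8 of 17 were below 0 (47.1%). Its receptor gene Igf1r was at 9.78, 14.6, 18.8 and 18.1 FPKM (slope 0.14 ± 0.038), lowest at 2 h, and the insulin receptor gene Insr at 7.47, 10.1, 9.25 and 10. Bcl2l11, a proapoptotic FoxO target, was at 1.14, 1.15, 1.46 and 1.74 FPKM, and Ccng2, another FoxO target, at 7.08, 6.72, 5.6 and 5.22. Shares below 0 in the remaining lists were 41.7% for ERK feedback, 47.4% for aminoacyl-tRNA synthetases, 50% for the interferon response, 58.8% for the circadian clock, 59.4% for autophagy and lysosome, 66.7% for actin and Srf or Yap targets and 73.3% for the oxidative stress and metal response.

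Cnr1, the receptor that HU210 activates in the treated libraries, was present in DMSO at 17.3, 27, 20.2 and 24.7 FPKM. Its slope was 0.053 ± 0.046 (limma, unadjusted p = 0.30), and without the 2 h library it was -0.031. Actb, the actin gene often used as a reference, was at 2656, 2464, 3332 and 4631 FPKM in DMSO, 1.74-fold higher at 8 h than at 2 h on the FPKM + 1 scale.

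The HU210 libraries did not enter the DMSO slopes or the same-way rule, and they give a second series of the same 4 hours. Which pooled experiments went into which library is not given in the sources used here. DMSO and HU210 libraries of an hour may share cultures and handling, so likeness between both series is not independent evidence of a time course. The lists and their members, however, were chosen with earlier results of these data known. No gene had a slope that differed between DMSO and HU210 at an adjusted p of 0.05 (limma interaction of hour and treatment over 8 libraries, smallest adjusted p = 0.958), and 324 (2.87%) had an unadjusted p under 0.05. With hour as a block, which pairs the DMSO and HU210 library of each hour, 0 genes passed (smallest adjusted p = 0.991) and 229 (2.03%) had an unadjusted p under 0.05. Over all tested genes the signs of both slopes were alike in 56.9%. Of the 38 genes higher at each later hour in DMSO, 36 had a slope above 0 in HU210 (94.7%), beside 61% of all tested genes, and 9 of the 38 were higher at every step in HU210 as well, beside 7.14% of all genes. Of the 99 genes lower at each later hour in DMSO, 66 had a slope below 0 in HU210 (66.7%), beside 39% of all genes, and 4 of the 99 were lower at every step, beside 4.77%. Median HU210 slopes were 0.081 and -0.025, nearer 0 than the DMSO medians of 0.11 and -0.12 by which the genes were chosen. After removal of the trend on GC content and length the shares were 92.1% beside 61.5% and 63.6% beside 38.4%.

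**Figure D5:**
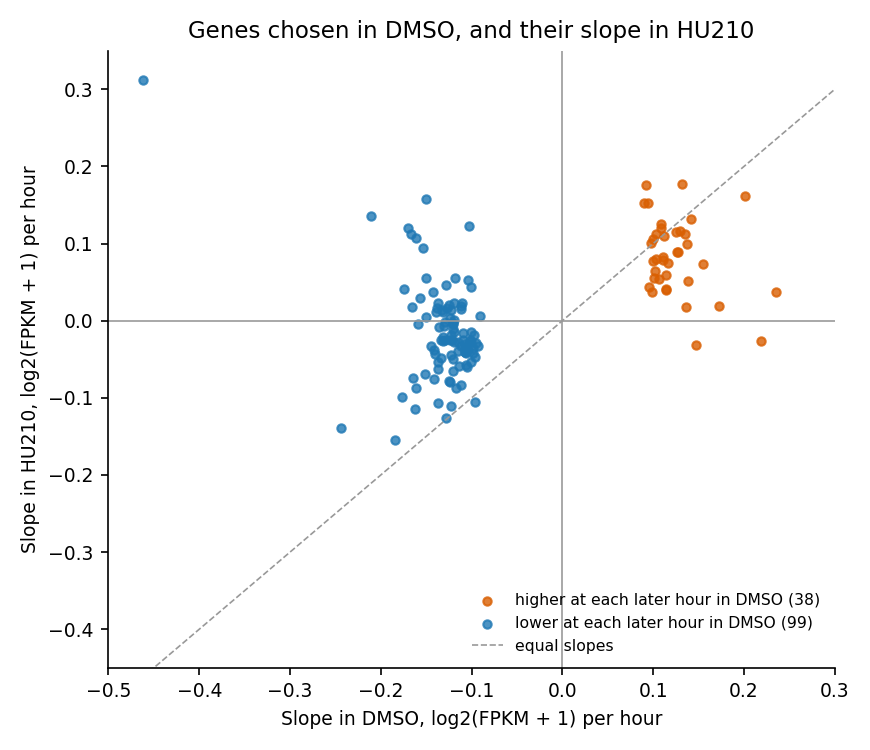
Slope in HU210 (vertical axis) against slope in DMSO (horizontal axis), both in log2(FPKM + 1) per hour, for the 137 genes that moved the same way at every step and by 1.5-fold in DMSO. Of the orange points (higher in DMSO) 36 of 38 lie above 0 on the HU210 axis, and of the blue points (lower in DMSO) 66 of 99 lie below 0.

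By gene, Dpysl2 was at 20, 21.2, 37.8 and 38.7 FPKM in HU210, Crebbp at 8.32, 8.32, 13.6 and 13.8, and Iqsec2 at 4.52, 4.62, 5.56 and 10.1, with 6 h and 8 h above 2 h and 4 h as in DMSO. Igf1r was at 9.64, 12.1, 17.2 and 18.9 FPKM and Map1b at 105, 102, 151 and 161. Id2 (4.27, 2.59, 2.51 and 2.12 FPKM) and Id3 (18.1, 11.1, 9 and 8.11) were lower at each later hour in HU210 too. Idi1 was at 52.1, 37.5, 32.7 and 34.2 FPKM and Ccnb1 at 60.7, 39.1, 45.4 and 38.4, highest at 2 h in both. By list, 21 of 22 sterol genes, 33 of 44 mitosis genes and 34 of 45 replication genes had HU210 slopes below 0, with medians of -0.037, -0.028 and -0.021, beside 39% of all tested genes and a median of 0.011.

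The histone genes had slopes of opposite sign in the 2 series. In HU210, 39 of the 50 had slopes above 0 (median 0.11), and the difference of slopes had an unadjusted p under 0.05 in 33 of the 50, beside 2.87% of all genes, although in no gene an adjusted p under 0.05 (limma). Their summed level was 476, 471, 626 and 564 FPKM in HU210 against 638, 598, 530 and 497 in DMSO. DMSO was above HU210 in 47 of the 50 genes at 2 h and in 39 at 4 h, and in 3 at 6 h and 4 at 8 h, so the order of the treatments turned over between 4 h and 6 h. Levels as a whole turned over with it: DMSO was above HU210 in 64.2% and 59.1% of all tested genes at 2 h and 4 h and in 34.4% and 37.6% at 6 h and 8 h. With the 8 libraries centred on their median log2 ratio, these shares of all genes were 48.1% to 51.3%, and DMSO was above HU210 in 45, 38, 5 and 4 of the 50 histone genes at 2, 4, 6 and 8 h. The median difference of the histones, DMSO minus HU210, was then 0.57, 0.54, -0.16 and -0.15 log2 units. H4c18, for example, was at 5.56, 7.45, 16.9 and 13.7 FPKM in HU210. The limits on these genes given above apply to both series. Actb, too, changed its order between treatments: in HU210 it was at 4827, 5793, 3378 and 3447 FPKM, above DMSO at 2 h and 4 h, about level with it at 6 h and below it at 8 h, with an interaction p of 0.011 unadjusted and 0.96 adjusted (limma).

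Among the genes with the smallest interaction p, Kbtbd8, a cullin adaptor of neural crest specification, was at 9.4, 7.75, 5.27 and 4.18 FPKM in DMSO and 5.41, 6.01, 6.27 and 6.65 in HU210 (limma, unadjusted p = 0.00018, adjusted p = 0.96). DMSO was above HU210 at 2 h and 4 h and below it at 6 h and 8 h. Arl4a, a small GTPase of the Arf family, was at 24.5, 25.1, 20.4 and 19.4 FPKM in DMSO and 17.2, 21.9, 28 and 29.8 in HU210. It, too, was above HU210 at 2 h and 4 h and below it at 6 h and 8 h. The shares of all tested genes with DMSO above HU210, given above, turned over between the same hours. Both genes were chosen by their interaction p in these same 8 libraries, which favours such a crossing. With the 8 libraries centred, the log2 difference, DMSO minus HU210, was 0.64, 0.24, -0.14 and -0.52 for Kbtbd8 and 0.43, 0.11, -0.37 and -0.55 for Arl4a.

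Of the 12 genes with the steepest negative slopes and at least 300 exon bases, 6 have been given above, and the other 6 were Gm20498 (9.06 to 2.83 FPKM), Zfp456 (3 to 0.91), Atxn3 (10.1 to 4.81), 9530077C05Rik (4.45 to 1.89), 1600012H06Rik (6.97 to 3.3) and the noncoding 2810403D21Rik (4.36 to 1.89). Gm20498 had the smallest p of the trend test (limma, unadjusted p = 0.0002, adjusted p = 0.85), and 66% of its exon bases are shared with Cox16 on the same strand, so its level cannot be told apart from that of Cox16. Atxn3, the deubiquitinase ataxin 3, was at 10.1, 7.79, 5.04 and 4.81 FPKM in DMSO but at 6.27, 4.45, 6.16 and 10.2 in HU210.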

How the data were processed

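Total RNA of N2A cells was extracted with TRIzol, and mRNA was purified with Dynabeads and sequenced, each library on a lane of its own. Per the labels and the study's methods, the authors mapped reads to mm9 with TopHat2 2.0.8, Bowtie2 2.1.0 and SAMtools 0.1.7, using Ensembl gene models and known junctions only, and Cufflinks (version not given in the sources used here) gave FPKM with multiread correction, fragment bias correction and upper-quartile normalization. Upper-quartile scaling sets each library's level by its more abundant genes, so levels are relative within a library. The deposited FPKM hold 1 added by the authors, which was subtracted here. The deposited fold change, p-value and q-value columns compare HU210 with DMSO and were not used.

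Genes listed at all 4 hours with a mean DMSO FPKM of at least 1 entered the fit. log2(FPKM + 1), with a pseudocount of 1, which understates the change of low genes, was fitted on hour with limma 3.58.1 (eBayes with a mean-variance trend, R 4.3.3) over the 4 DMSO libraries, and on hour, treatment and their interaction over all 8, with Benjamini-Hochberg adjustment over 11300 genes. The scripts were tested on simulated data. A descriptive call asked for the same direction at all 3 steps and at least 1.5-fold from 2 h to 8 h. Named genes were the 12 steepest of these in each direction with at least 300 exon bases, the 5 smallest trend and interaction p in each direction (short RNA genes among them are not described), up to 8 genes per list with the steepest slopes and each list's most abundant gene, and Cnr1. Only part of the genes that this rule names is described, and some items are not reported here. The genes shown by promoter and the order of description were chosen after values were seen, and members, lists and rules were chosen with earlier results of these data known. Gene positions, exon overlaps, GC content and length are from GENCODE vM1 (mm9), and promoter windows from RefSeq (GRCm38.p6), used for sequence only. Symbols of 15882 of the 15888 gene identifiers matched RefSeq. Alternatives were a pseudocount of 0.1, no filter or a mean FPKM of 5, centring, quantile normalization, removal of a loess trend on GC content and length, leaving out each library, other cutoffs, an FDR of 10%, eBayes without a trend, log2 of the hour and, for the interaction, hour as a block. The block and the centring of all 8 libraries were added after the data were seen. Figures were drawn with matplotlib 3.10.9.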

Additional observations from a re-analysis of the deposited data

Results flagged for a closer look

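Every step went one way in DMSO and every step the other way in HU210 in 6 of 11300 tested genes (0.0531%), of which 5 are described here. From 2 h to 8 h, the change of log2(FPKM + 1) in DMSO and in HU210 was -1.01 and 0.25 for Kbtbd8, -0.53 and 0.19 for Rbm45, -0.29 and 0.26 for Dyrk3, -0.09 and 0.17 for BC005624, and -0.06 and 0.18 for Dffa. The difference of slopes had an unadjusted p of 0.00018 for Kbtbd8, 0.0045 for Rbm45, 0.024 for Dyrk3, 0.18 for BC005624 and 0.22 for Dffa, and an adjusted p of 0.96 in each (limma interaction of hour and treatment). At 2 h DMSO was above HU210 in each of these 5, beside 64.2% of all tested genes, for example at 17.9 against 14 FPKM in Rbm45, an RNA-binding protein. The genes were chosen for opposite directions in the same 8 libraries, which favours a difference at 2 h, so this order is no separate result.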

How the results depend on the processing

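The interaction test gave 0 calls under the 7 alternatives run for it, the pseudocount, both filters, both scalings, the removal of the trend on GC content and length, and hour as a block, which pairs the libraries of an hour and was added after the data were seen. The trend test gave 0 calls under each of its alternatives except one: without single libraries the trend calls ranged from 0 to 16 higher and from 0 to 8 lower, all of them without 8 h. Genes that moved the same way at every step numbered 94 higher and 274 lower at a cutoff of 1.3-fold, 4 and 8 at 2-fold, and 316 and 649 with no cutoff on size. Leaving out a library gave 86 to 98 higher and 79 to 320 lower. Steps of 1.3-fold or more numbered 916 higher and 753 lower from 2 h to 4 h, 803 and 1846 from 4 h to 6 h, and 551 and 496 from 6 h to 8 h, and steps of 2-fold or more 36 and 40, 75 and 96, and 31 and 75. A pseudocount of 0.1 gave 377 higher genes from 2 h to 4 h and 230 from 6 h to 8 h, and a mean FPKM of at least 5 gave 115 lower genes from 6 h to 8 h. Of 79 named genes, 72 kept the sign of their slope under every alternative run for single genes. These were a pseudocount of 0.1, centring, quantile normalization, removal of the trend on GC content and length, and leaving out each library. Most of the named genes were chosen for steep slopes or a steady order in these same libraries, so the count of 72 is no test of them. Myc was at -0.001 after removal of the trend on GC content and length and Hsp90ab1 at 0.006 after centring. Without single libraries, slopes ranged from -0.031 to 0.077 for Cnr1, -0.092 to 0.022 for Cdk1, -0.097 to 0.026 for Id1, -0.02 to 0.014 for Myc, -0.022 to 0.001 for Hsp90ab1, -0.071 to 0.067 for Rplp0 and -0.001 to 0.069 for Insr. The cause was not tested. List medians kept their sign under the same alternatives and both filters in 15 of 31 lists. Those of mitosis, DNA replication, histones and sterol synthesis were among them. The log2 of the hour was not run for named genes or lists. No paired analysis was possible of the trend within DMSO, because each hour holds 1 DMSO library. With 1 library an hour and FPKM without counts, no error can be given for a single hour.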
